A study of Mus musculus with 12 samples.

Results

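Glomeruli that lack TNF receptor 1 were compared with wildtype glomeruli after exposure of both to TNF. The comparison rests on the 3 arrays titled Tnfr1-deficient and the 3 titled wild-type, 6 of the 12 arrays of the series, and for each gene symbol the probe set with the brightest average across the series was kept, which gave 18194 genes. Intact glomeruli had been isolated from kidneys of male mice aged 6 to 8 weeks with magnetic beads, and cultures of 5000 glomeruli had been serum-starved and then exposed for 12 hours to murine TNF at 50 ng/ml. The Tnfr1-/- mice carried the allele Tnfrsf1atm1Mak on a B6.129 background that the labels also give as C57Bl/6J, and the wildtype mice were given as C57Bl/6J. By the methods, these wildtype controls came from crosses of mice deficient in a single TNF receptor. The other 6 arrays came from Tnfr1,2-/- (Tnfrsf1atm1Mak and Tnfrsf1btm1Mwm) and Tnfr2-/- (Tnfrsf1btm1Mwm) glomeruli, 3 each. The mice lacked the receptor in every cell of the body from conception on, and all groups were exposed to TNF, so the values compare TNF-exposed glomeruli of different genotype and hold no unstimulated level. The arrays measure RNA of whole glomeruli, in which fewer cells of a type and less RNA per cell cannot be told apart.

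TNF receptor 1 is a death-domain receptor that is present on most cells and is activated by soluble TNF. Ligand binding assembles a complex of TRADD, TRAF2, RIPK1 and the inhibitor of apoptosis proteins, which activates the IκB kinases and thereby NF-κB, whose targets include chemokines, adhesion molecules and its own inhibitors. In the glomerulus, mesangial cells, endothelial cells and podocytes respond to TNF with production of leukocyte attractants, which is a known step in glomerulonephritis.

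In Tnfr1-/- glomeruli 131 genes were lower than in wildtype glomeruli, which is 0.72% of the genes tested, and 88 were higher, 0.484% of them. Calls needed 1.5-fold or more and an adjusted p under 0.05 (limma, Benjamini-Hochberg adjustment over all genes), and 1.2% of genes met both. The lower genes were led by chemokines, adhesion molecules, complement factor B, acute phase proteins, guanylate-binding proteins and the itaconate enzyme Acod1. The higher genes were led by the vasodilator peptide Vip, the lymphangiogenic growth factor Vegfd, the mesangial homeodomain gene Hopx and the Notch target Heyl. The decreases were the larger ones. Their median was 3.0-fold, and 40 genes were lower by at least 4-fold, 21 by at least 8-fold and 12 by at least 16-fold. The median increase was 2.50-fold, with 13 genes higher by at least 4-fold, 1 by at least 8-fold and 0 by at least 16-fold. Over all genes the median log2 change was -0.0049, with quartiles at -0.12 and 0.12.

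**Figure D1:**
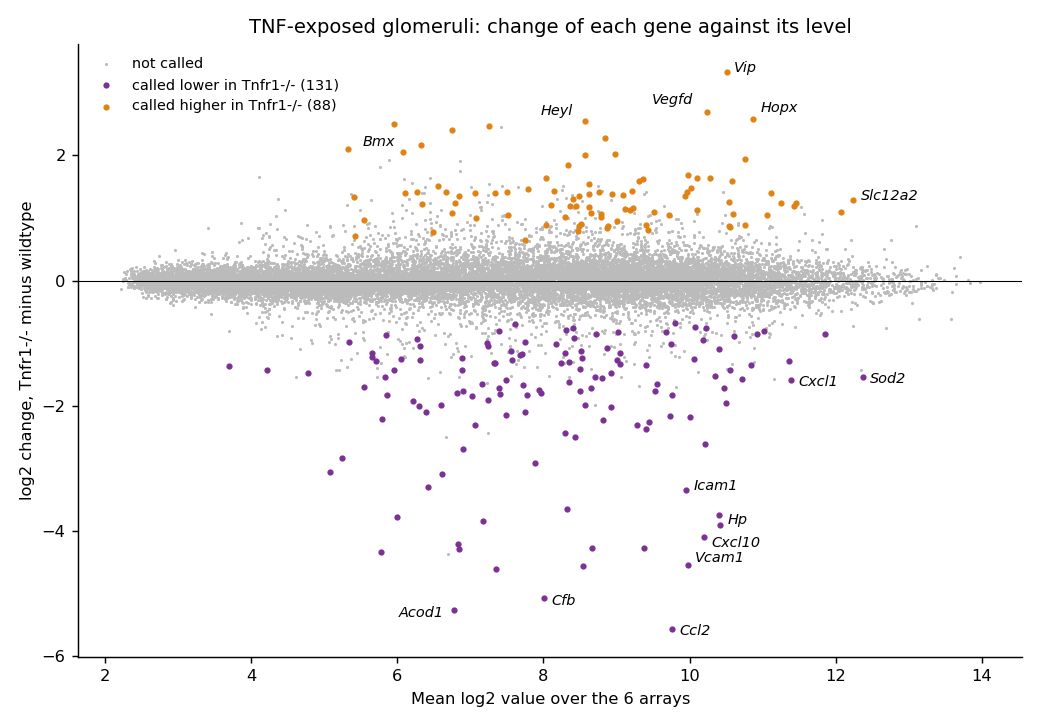
Log2 change, Tnfr1-/- minus wildtype (y axis), against the mean log2 value over the 6 arrays (x axis) for 18194 genes. Purple points are the 131 genes called lower, orange points the 88 called higher and grey points the rest; the largest decrease is that of Ccl2 (-5.56) and the largest increase that of Vip (3.34).

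All 219 called genes had 3 Tnfr1-/- arrays on one side of the 3 wildtype arrays, as did 11% of all genes (5.51% under and 5.5% above wildtype). The lower genes had a median of the mean log2 values of 7.12 in Tnfr1-/- and 9.07 in wildtype glomeruli, and the higher genes 9.32 in Tnfr1-/- and 8.06 in wildtype glomeruli. For 31 lower genes the Tnfr1-/- mean lay under the median of all values (5.62), a range in which background hybridisation is known to compress folds. For 10 higher genes the wildtype mean lay in that range. Under the replicate block, which treats arrays of the same number as paired, the calls grew to 240 lower and 197 higher genes and included each of the 219. The number of calls moved with single arrays. It was 78 lower and 40 higher without wildtype replicate 2, 91 and 55 without wildtype replicate 1, 94 and 63 without wildtype replicate 3, 87 and 69 without Tnfr1-/- replicate 1, 116 and 61 without Tnfr1-/- replicate 2, and 99 and 76 without Tnfr1-/- replicate 3. A fit to the 6 arrays alone called 60 lower and 37 higher genes, 92 of them among the 219. Of the called genes eligible to be named, 63 lost the call in that fit (adjusted p between 0.051 and 0.25) and 28 for the mean of their probe sets. Not all of these losses are repeated where the genes are named below.

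The targeted receptor was still detected as RNA. Tnfrsf1a, measured by a single probe set, had log2 values of 9.80, 10.18 and 9.24 on the Tnfr1-/- arrays, against 10.70, 10.73 and 10.23 on the wildtype arrays. The highest Tnfr1-/- array lay just under the lowest wildtype array. Its change was -0.82 (standard error 0.237), with an adjusted p of 0.217 and, with the replicate number as a block, of 0.031. A probe set outside the disrupted part of the gene says nothing about the protein, and the position of this one relative to the disruption was not determined. Tnfrsf1b, which encodes TNF receptor 2, had log2 values of 7.32, 8.36 and 6.76 in Tnfr1-/- and 7.77, 7.71 and 7.41 in wildtype glomeruli. These ranges overlapped, and the change was -0.15.

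Ccl2 and 10 other chemokines were called lower. Of 7 measured neutrophil-attracting CXC chemokines 4 were called lower, of 3 interferon-inducible CXC chemokines 2, of 17 CC chemokines 4 and of 6 other chemokines 1, and none was called higher. The median log2 changes of these lists were -1.59, -3.78, -0.26 and -0.09, against -0.0049 over all genes. None of the 13 measured chemokine receptors passed, where 1.2% of all genes did. Ccrl2 (-0.85, adjusted p = 0.082) passed with the replicate number as a block (0.041). Without wildtype replicate 2 or Tnfr1-/- replicate 1, 3 CC chemokines and 3 neutrophil-attracting ones were called and 0 of the other chemokines.

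Ccl2, the main attractant of inflammatory monocytes, had the largest decrease of all genes. Its log2 values were 6.78, 7.84 and 6.30 in Tnfr1-/- glomeruli, against 12.51, 12.75 and 12.35 in wildtype glomeruli. The wildtype values were among the highest of the arrays and close together, and those of Tnfr1-/- glomeruli spread over more than 1 log2 unit. This is a 47.2-fold decrease (log2 change -5.56, standard error 0.353, adjusted p = 1.7e-05). Ccl7, a neighbour of Ccl2 with overlapping receptors, was 14.2-fold lower (log2 change -3.83). Ccl5, an attractant of T cells and monocytes, had log2 values of 7.48, 7.75 and 6.31 in Tnfr1-/- and 9.56, 9.76 and 9.72 in wildtype glomeruli, a 5.65-fold decrease (adjusted p = 0.0041). Ccl9 was 4.27-fold lower (adjusted p = 0.010), and its call was lost without Tnfr1-/- replicate 1 (adjusted p = 0.054) or wildtype replicate 2 (0.065).

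Cxcl2, a ligand of the neutrophil receptor CXCR2, had log2 values of 6.68, 8.00 and 7.05 in Tnfr1-/- glomeruli, against 11.23, 11.60 and 11.70 in wildtype glomeruli. The gap between the groups was more than 3 log2 units, and the decrease was 19.2-fold (standard error 0.338 on the log2 scale, adjusted p = 7e-05). Cxcl3, another CXCR2 ligand, was 20.2-fold lower and Cxcl5 8.31-fold, with Tnfr1-/- values between 3.11 and 4.33 at the lower end of the arrays. Cxcl1, a further ligand, had a smaller fitted decrease. Its log2 values were 10.14, 11.45 and 10.18 in Tnfr1-/- glomeruli, against 11.98, 12.27 and 12.28 in wildtype glomeruli, a 3.01-fold decrease (adjusted p = 0.027). That call was lost when any one of 5 of the 6 arrays was left out (adjusted p = 0.12 without Tnfr1-/- replicate 1, 0.093 without Tnfr1-/- replicate 3, and 0.069, 0.13 and 0.11 without wildtype replicates 1, 2 and 3).

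Among the ligands of CXCR3, which draw activated T cells, Cxcl10 had log2 values of 7.56, 9.16 and 7.72 in Tnfr1-/- glomeruli, against 12.09, 12.16 and 12.47 in wildtype glomeruli. Replicate 2 was the highest of the Tnfr1-/- arrays by more than 1 log2 unit and still lay well under wildtype. The decrease was 17.0-fold (standard error 0.346 on the log2 scale, adjusted p = 0.00012). Cxcl9 was 13.7-fold lower (adjusted p = 0.0001). Its second probe set was near the floor of the arrays and changed by -0.97. Cxcl11 changed by -0.49 and did not pass (adjusted p = 0.69). Cxcl16, a membrane-bound chemokine that also acts as a scavenger receptor, was 3.37-fold lower (adjusted p = 0.018), a call that needed both wildtype replicates 1 and 2 and both Tnfr1-/- replicates 1 and 3 (adjusted p = 0.059, 0.10, 0.077 and 0.067 when each was left out).

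The DNA before the start sites was available from RefSeq for 98 of the 131 lower genes, 70 of the 88 higher genes and 14453 of all genes tested. An NF-κB motif of 10 bases, searched on both strands in the 250 bases before the first-listed start, was present before 17 lower genes (17.3%), 3 higher genes (4.29%) and 629 of all genes (4.35%). The core of the interferon-stimulated response element (a pair of GAAA units with any 2 bases between them) was present before 7.14% of the lower genes, 1.43% of the higher genes and 2.63% of all genes, and the STAT motif TTCNNNGAA before 13.3%, 4.29% and 6.3%. These shares describe letters in a window and not bound sites, and related genes such as Cxcl1, Cxcl2 and Cxcl3 are neighbouring paralogues. The windows of 6 lower genes that hold the NF-κB motif are shown because they carry it in chemokines and in inhibitors of NF-κB itself. They are 250 bases long, 5′ to 3′ on the strand of the gene, ending at the base before the start (build GRCm38.p6, RefSeq), with the motif in capitals. In the 3 clustered chemokines 2 matches that overlap by all but 1 base give 11 capitals.
Cxcl1 (chr5:90890995-90891244, plus strand): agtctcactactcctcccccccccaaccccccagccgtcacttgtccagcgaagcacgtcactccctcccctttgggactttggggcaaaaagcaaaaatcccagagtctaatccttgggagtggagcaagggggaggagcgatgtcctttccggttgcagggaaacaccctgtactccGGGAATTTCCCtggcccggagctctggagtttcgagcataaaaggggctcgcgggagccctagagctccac
Cxcl2 (chr5:90903649-90903898, plus strand): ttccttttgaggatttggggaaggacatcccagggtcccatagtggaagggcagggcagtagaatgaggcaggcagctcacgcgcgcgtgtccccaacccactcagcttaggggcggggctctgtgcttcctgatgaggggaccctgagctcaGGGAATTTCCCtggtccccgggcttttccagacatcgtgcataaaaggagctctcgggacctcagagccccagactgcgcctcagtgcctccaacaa
Cxcl3 (chr5:90785851-90786100, plus strand): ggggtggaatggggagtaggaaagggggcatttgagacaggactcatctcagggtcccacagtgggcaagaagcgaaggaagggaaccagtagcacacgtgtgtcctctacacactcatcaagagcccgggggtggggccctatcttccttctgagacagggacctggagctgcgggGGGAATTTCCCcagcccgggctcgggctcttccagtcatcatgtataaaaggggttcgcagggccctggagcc
Cxcl10 (chr5:92348890-92349139, minus strand): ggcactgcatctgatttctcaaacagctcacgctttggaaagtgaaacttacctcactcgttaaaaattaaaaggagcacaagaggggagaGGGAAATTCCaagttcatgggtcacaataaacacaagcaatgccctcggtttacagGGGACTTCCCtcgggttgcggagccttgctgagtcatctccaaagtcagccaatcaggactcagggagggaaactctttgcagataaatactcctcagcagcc
Nfkbie (chr17:45555450-45555699, plus strand): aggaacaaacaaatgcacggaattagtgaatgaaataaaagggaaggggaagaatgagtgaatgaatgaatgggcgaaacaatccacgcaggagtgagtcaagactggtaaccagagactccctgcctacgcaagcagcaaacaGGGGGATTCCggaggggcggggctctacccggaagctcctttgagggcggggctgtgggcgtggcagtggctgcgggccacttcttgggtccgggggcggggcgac
Tnfaip3 (chr10:19015411-19015660, minus strand): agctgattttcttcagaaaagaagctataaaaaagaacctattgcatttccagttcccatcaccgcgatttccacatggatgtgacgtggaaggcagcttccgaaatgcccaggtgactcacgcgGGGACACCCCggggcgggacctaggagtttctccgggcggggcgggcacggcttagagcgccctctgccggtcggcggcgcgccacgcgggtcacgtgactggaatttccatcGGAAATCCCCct
The same 11 letters stand before Cxcl1, Cxcl2 and Cxcl3, at positions -71 to -61, -97 to -87 and -73 to -63 counted from the start, and the log2 changes of these genes were -1.59, -4.27 and -4.33.

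A pair of adhesion molecules that hold leukocytes on activated endothelium fell. Vcam1, the ligand of integrin VLA-4, had log2 values of 6.95, 8.53 and 7.63 in Tnfr1-/- glomeruli, against 12.12, 12.38 and 12.24 in wildtype glomeruli. The wildtype arrays were close together, and the decrease was 23.4-fold (standard error 0.412 on the log2 scale, adjusted p = 0.00018). Icam1, the ligand of LFA-1, had log2 values of 7.93, 8.87 and 8.04 in Tnfr1-/- and 11.72, 11.95 and 11.20 in wildtype glomeruli, a 10.1-fold decrease (adjusted p = 4.4e-05). These were 2 of the 17 measured adhesion molecules, whose median change was -0.10. Madcam1, a ligand of integrin α4β7, had log2 values of 5.93, 6.20 and 5.96 in Tnfr1-/- and 8.99, 9.03 and 7.38 in wildtype glomeruli. The groups did not overlap, but the change of -2.44 did not pass (adjusted p = 0.073, and 0.0029 with the replicate number as a block). E-selectin (Sele, -0.58) and P-selectin (Selp, -0.64) were dim and did not pass.

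**Figure D2:**
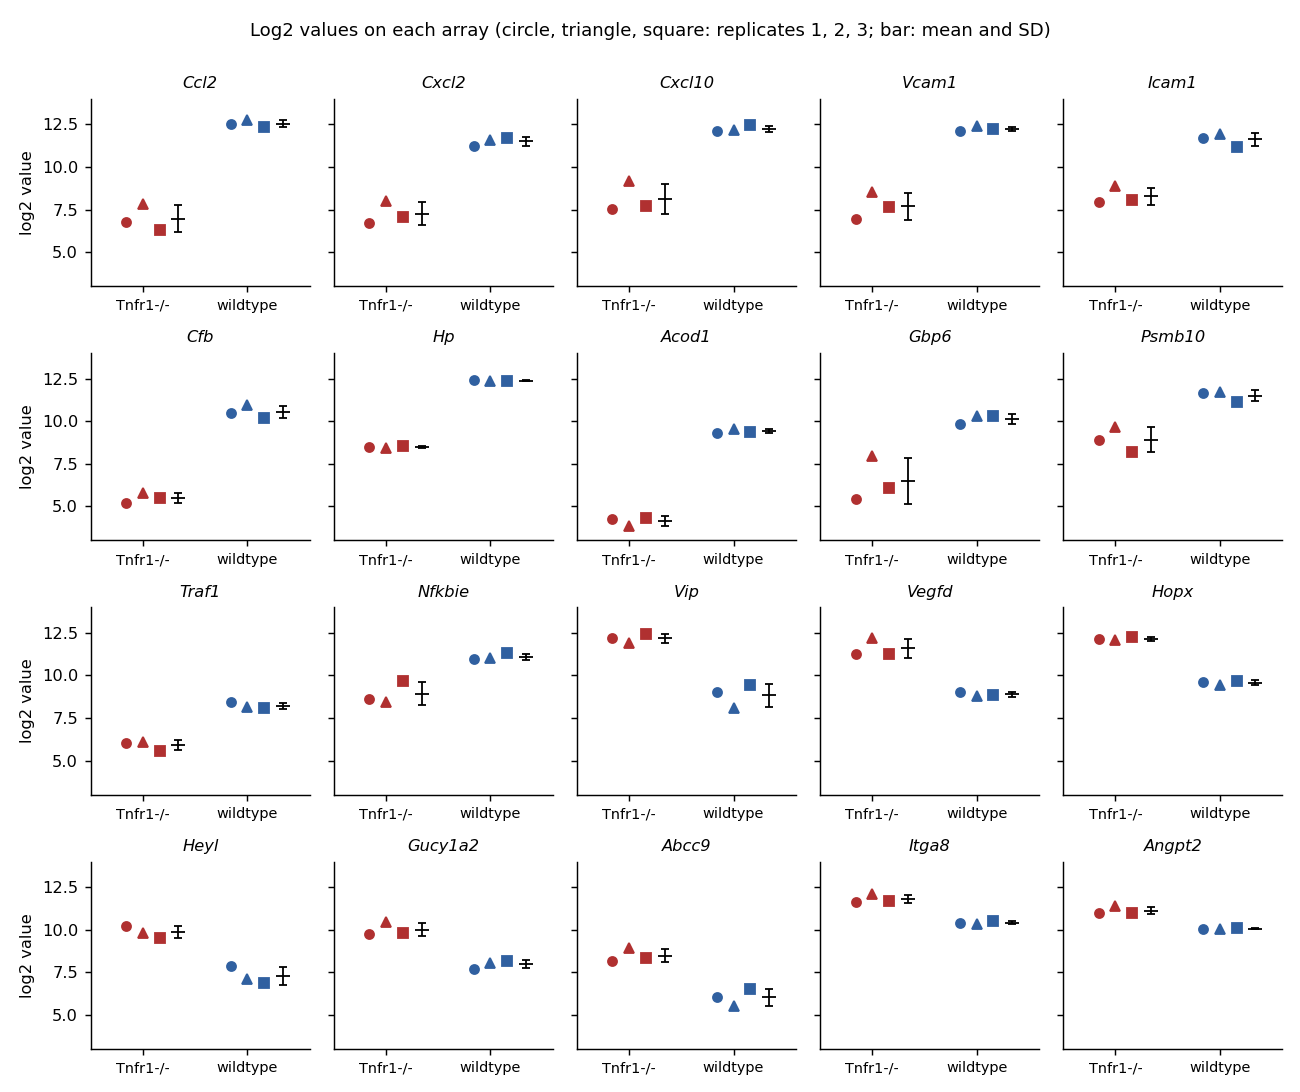
Log2 value (y axis) on each of the 3 Tnfr1-/- and 3 wildtype arrays for 20 genes (circle, triangle and square are replicates 1, 2 and 3; bars are the mean and SD). In the lower genes from Ccl2 to Nfkbie every Tnfr1-/- array lies under every wildtype array, and in the genes from Vip to Angpt2 every Tnfr1-/- array lies above.

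Complement and acute phase genes fell in part. Of 17 measured complement genes 4 were called lower, and of 17 acute phase genes 4, with median changes of -0.06 and -0.22. Complement factor B (Cfb), the protease of the alternative pathway convertase, had log2 values of 5.18, 5.76 and 5.47 in Tnfr1-/- glomeruli, against 10.47, 10.95 and 10.22 in wildtype glomeruli. It was thus near the median of the arrays without the receptor and among their bright genes with it, a 33.7-fold decrease (standard error 0.329 on the log2 scale, adjusted p = 1.7e-05). Serping1, the C1 esterase inhibitor, was 3.53-fold lower (adjusted p = 0.0031). The C1 proteases C1ra and C1s1 were 1.70-fold and 1.84-fold lower (adjusted p = 0.041 and 0.022). Leaving out wildtype replicate 2 raised these p-values to 0.20 and 0.11, wildtype replicate 1 to 0.19 and 0.10, Tnfr1-/- replicate 1 to 0.14 and 0.068, and Tnfr1-/- replicate 3 to 0.12 and 0.083. C1ra was also lost without Tnfr1-/- replicate 2 (0.11) and C1s1 without wildtype replicate 3 (0.052). The C1q chains, which are made by macrophages, went the other way in value, with changes of 0.08 (C1qa), 0.40 (C1qb) and 0.60 (C1qc), none past the test.

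Haptoglobin (Hp), which binds free haemoglobin, differed little between arrays of 1 genotype. Its log2 values were 8.46, 8.41 and 8.54 in Tnfr1-/- glomeruli, against 12.42, 12.36 and 12.35 in wildtype glomeruli. The SD was 0.065 among the Tnfr1-/- and 0.036 among the wildtype arrays, and the decrease was 15-fold (standard error 0.201 on the log2 scale, adjusted p = 4.6e-06). Serum amyloid A3 (Saa3) had log2 values of 5.86, 6.22 and 6.74 in Tnfr1-/- and 9.99, 11.03 and 11.45 in wildtype glomeruli, a 23.4-fold decrease (adjusted p = 0.0005). The other called members were the endotoxin-binding protein Lbp (2.49-fold lower, adjusted p = 0.030) and the metalloreductase Steap4 (1.99-fold lower, adjusted p = 0.020, and 0.19 with a log2 change of -0.72 for the mean of its probe sets). Lbp was lost without Tnfr1-/- replicate 2 or 3 (adjusted p = 0.12 and 0.085) or wildtype replicate 1 or 2 (0.14 and 0.12), and Steap4 without Tnfr1-/- replicate 2 (0.083) or wildtype replicates 1, 2 or 3 (0.090, 0.099 and 0.053). The acute phase count was 2 without Tnfr1-/- replicate 2, wildtype replicate 1 or wildtype replicate 2 and with the 6 arrays alone, and that of complement was 2 without Tnfr1-/- replicate 1 or 3 or wildtype replicate 1 or 2.

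Some interferon-inducible GTPases were called lower, and most antiviral genes did not pass the test. Of 5 measured guanylate-binding proteins, large GTPases that act against intracellular pathogens, 3 were called lower, and the median change of the list was -3.65. Gbp2 had log2 values of 7.78, 8.96 and 8.85 in Tnfr1-/- glomeruli, against 12.08, 12.39 and 12.33 in wildtype glomeruli, a 13.3-fold decrease (adjusted p = 0.00024). Gbp3 was 19.2-fold lower (adjusted p = 0.00016). Gbp6 had the widest spread among the Tnfr1-/- arrays of all named genes, with 5.40, 7.98 and 6.10, against 9.81, 10.32 and 10.29 in wildtype glomeruli. Its decrease of 12.6-fold passed (adjusted p = 0.0032), but not with the 6 arrays alone (adjusted p = 0.069). Guanylate-binding proteins are close paralogues, and the probe set of Gbp2 carries an identifier that marks cross-hybridisation, so signals of the members cannot be fully separated. Of 5 immunity-related GTPases, a second family of this kind, 1 was called (median -0.57). This was Ifi47, which was 4.45-fold lower (adjusted p = 0.017), and its call was lost without Tnfr1-/- replicate 1 or 3 (adjusted p = 0.062 and 0.066) or without wildtype replicate 2 or 3 (0.096 and 0.064). Of 27 antiviral interferon-stimulated genes 3 were called lower (median -0.04), and 5 with the replicate number as a block. Xaf1, an inhibitor of XIAP, was 2.92-fold lower (adjusted p = 0.0044, and 0.065 with the 6 arrays alone). Parp14 and Ddx58, the RNA sensor RIG-I, were 2.66-fold and 1.76-fold lower. Their calls were lost without wildtype replicate 2 (adjusted p = 0.052 and 0.22), and that of Ddx58 also without wildtype replicate 1 (0.20) or any Tnfr1-/- array (0.16, 0.074 and 0.14), so that the list held 1 called gene without wildtype replicate 2. Irf1 changed by -1.41 without passing (adjusted p = 0.078, and 0.013 with the replicate number as a block). In the IRF, STAT and SOCS list 0 of the 20 genes passed, where 1.2% of all genes did. The count was 2 with the block and 1 without Tnfr1-/- replicate 2.

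Genes of MHC class I presentation and of the immunoproteasome fell in part. Of 14 measured genes 5 were called lower and 13 had negative values (median -0.83). Psmb10, a catalytic subunit of the immunoproteasome, had log2 values of 8.89, 9.65 and 8.19 in Tnfr1-/- glomeruli, against 11.68, 11.70 and 11.16 in wildtype glomeruli. The lowest Tnfr1-/- array was replicate 3 and the highest replicate 2, and the decrease was 6.07-fold (adjusted p = 0.0044). Psmb8, another such subunit, was 4.92-fold lower (adjusted p = 0.0078, and 0.091 with the 6 arrays alone). Psmb9, the remaining inducible subunit, changed by -1.39 and did not pass (adjusted p = 0.26). The peptide loading factors Tapbp and Tapbpl and the trimming peptidase Erap1 were 2.43-fold, 2.48-fold and 2.12-fold lower. These 3 calls were lost without wildtype replicate 1 (adjusted p = 0.059, 0.091 and 0.054), wildtype replicate 2 (0.095, 0.11 and 0.065) or Tnfr1-/- replicate 1 (0.054, 0.073 and 0.058), which left 2 members called. Tapbp and Tapbpl were also lost without Tnfr1-/- replicate 3 (0.050 and 0.074), Tapbp for the mean of its probe sets (0.92), and Erap1 without wildtype replicate 3 (0.062). None of 24 constitutive proteasome subunits passed (median -0.17), where 1.2% of all genes did. None of 8 MHC class II genes did either, all of them with positive values (median 0.33).

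**Figure D3:**
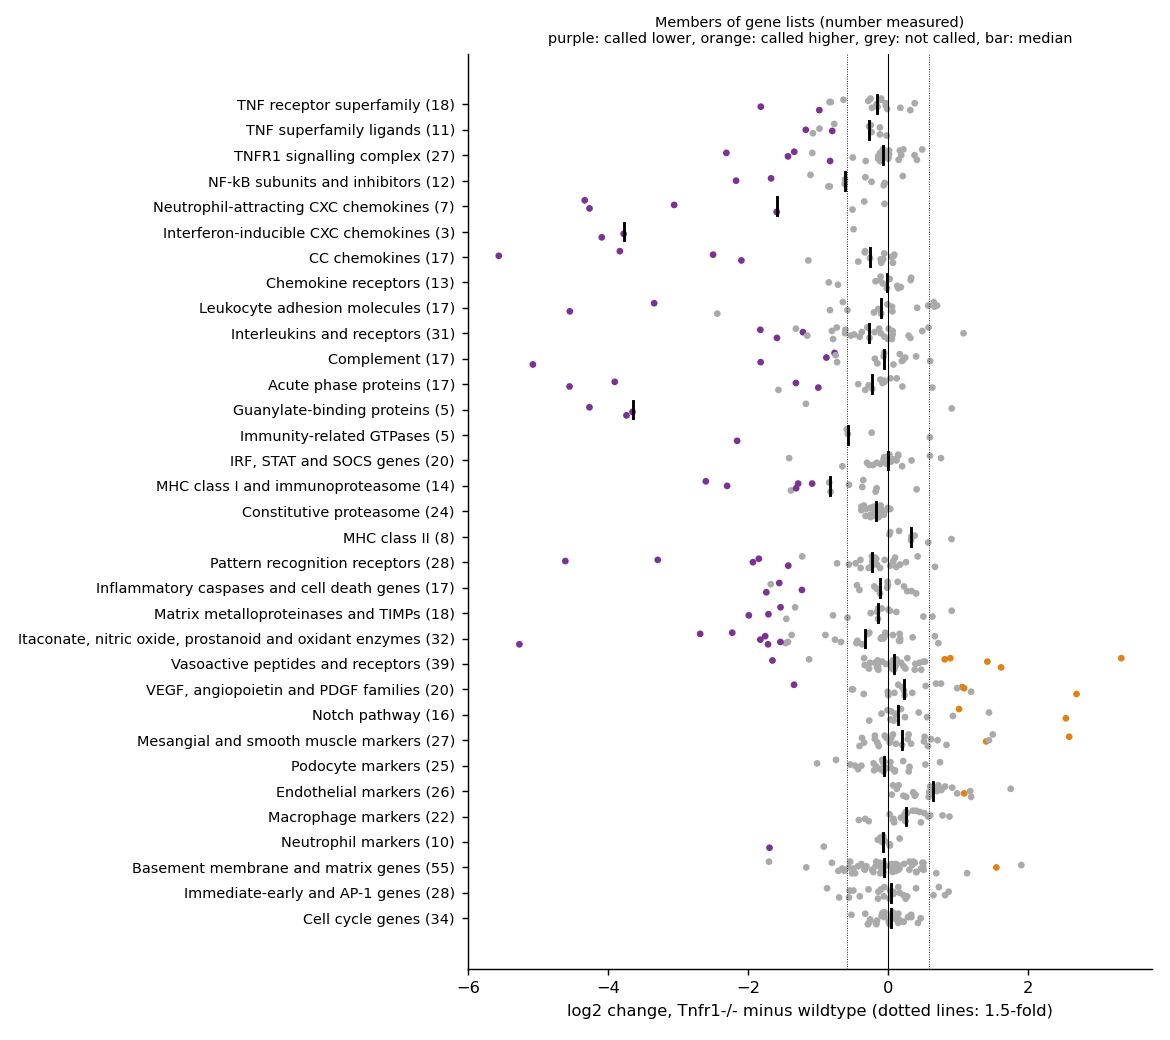
Log2 change, Tnfr1-/- minus wildtype (x axis), of the measured members of 33 gene lists, 1 line per list with the number of measured members in brackets. Purple points were called lower, orange points higher and grey points neither, and the bar is the median of the list; the interferon-inducible CXC chemokines (-3.78) and guanylate-binding proteins (-3.65) have the lowest medians and the endothelial markers a median of 0.64.

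Some pattern recognition receptors and the itaconate enzyme fell, while no macrophage marker passed the test. Acod1, which makes the antimicrobial metabolite itaconate, had log2 values of 4.28, 3.82 and 4.33 in Tnfr1-/- glomeruli, against 9.32, 9.54 and 9.37 in wildtype glomeruli. This 38.5-fold decrease had the smallest p of all genes (standard error 0.197 on the log2 scale, adjusted p = 2.7e-07), and the Tnfr1-/- values lay in the dim range of the arrays. Clec4e, the receptor Mincle for damaged cells and mycobacteria, was 24.4-fold lower (adjusted p = 2.4e-05), with a log2 change of -2.02 on its second probe set. The medium-chain fatty acid receptor Gpr84 was 18.5-fold lower (adjusted p = 1.7e-05) and the formyl peptide receptor Fpr2 3.81-fold (0.0044). The scavenger receptor Marco was 9.78-fold lower (adjusted p = 0.0031), with a log2 change of -1.44 on its second probe set. Tlr2, the receptor for bacterial lipopeptides, had log2 values of 5.97, 6.20 and 6.12 in Tnfr1-/- and 8.09, 7.94 and 7.81 in wildtype glomeruli, a 3.59-fold decrease (adjusted p = 2.8e-05). Of 28 measured pattern recognition receptors 5 were called lower (median -0.23). Of 22 macrophage markers 0 were called, where 1.2% of all genes were, and 3 had negative values. Their median change was 0.25 here but -0.50 in Tnfr1,2-/- against Tnfr2-/- glomeruli. The part of macrophages in the lower genes was not tested. The mean log2 value of the macrophage markers was 7.74, 8.43 and 7.31 on the Tnfr1-/- arrays, against 7.38, 7.92 and 7.40 on the wildtype arrays. Ptprc, which encodes the leukocyte antigen CD45, changed by 0.52.

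Further enzymes of inflammation were among the lower genes. Of 32 measured enzymes of itaconate, nitric oxide, prostanoid and oxidant metabolism 7 were called lower (median -0.33), 5 without Tnfr1-/- replicate 3 or wildtype replicate 3 and 4 without wildtype replicate 2. Arginase 2 (Arg2) was 6.42-fold lower (adjusted p = 3.7e-05) and Gch1, which makes the cofactor of nitric oxide synthases, 3.28-fold (adjusted p = 0.0040). Inducible nitric oxide synthase itself (Nos2) changed by -0.10. Sod2, the mitochondrial superoxide dismutase and a classical NF-κB target, had log2 values of 11.45, 11.85 and 11.50 in Tnfr1-/- glomeruli, against 12.97, 13.14 and 13.29 in wildtype glomeruli, a 2.90-fold decrease from a level near the top of the arrays (adjusted p = 0.0023). The prostanoid enzymes Ptgs2 and Ptges were 4.68-fold and 3.37-fold lower (adjusted p = 0.022 and 0.020), and both calls were lost without Tnfr1-/- replicate 2 (adjusted p = 0.096 and 0.068) or wildtype replicate 2 (0.12 and 0.11). That of Ptgs2 was also lost without Tnfr1-/- replicate 1 (0.075) or wildtype replicate 3 (0.095), and that of Ptges without Tnfr1-/- replicate 3 (0.074) or wildtype replicate 1 (0.093). The matrix-degrading enzymes Mmp9 and Mmp13 were 3.97-fold and 2.90-fold lower (adjusted p = 0.0038 and 0.0071), and 3 of 18 metalloproteinases and their inhibitors passed. The third was Mmp3 (log2 change -1.71). Its call was lost without Tnfr1-/- replicate 1 or 3 (adjusted p = 0.062 and 0.050), without wildtype replicate 2 or 3 (0.12 and 0.097) and with the 6 arrays alone (0.11). The glucose transporter Slc2a6 was 19.6-fold lower (adjusted p = 2.8e-05), and the zinc transporter Slc39a8 4.01-fold (0.0051).

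Some genes of the TNF receptor and NF-κB pathway were called lower in Tnfr1-/- glomeruli. Of 27 measured genes of the TNFR1 signalling complex 4 were called lower (median -0.07), 2 of them without Tnfr1-/- replicate 1 or wildtype replicate 1 or 2, and of 12 NF-κB subunits and inhibitors 2 (median -0.62). Traf1, an adaptor that binds TRAF2, had log2 values of 6.05, 6.09 and 5.58 in Tnfr1-/- glomeruli, against 8.42, 8.15 and 8.07 in wildtype glomeruli, a 4.95-fold decrease (adjusted p = 9.9e-05). Nfkbie, which encodes the inhibitor IκBε, had log2 values of 8.61, 8.47 and 9.70 in Tnfr1-/- and 10.95, 11.04 and 11.30 in wildtype glomeruli. Here replicate 3, and not replicate 2, was the high Tnfr1-/- array. The decrease was 4.50-fold (adjusted p = 0.0053, and 0.051 with the 6 arrays alone). The kinase gene Ikbke and Tnip1, a partner of the deubiquitinating enzyme A20, were 3.18-fold and 2.69-fold lower (adjusted p = 0.0053 and 0.0055), and Ikbke had an adjusted p of 0.065 with the 6 arrays alone. Tnfaip3, which encodes A20, was 2.53-fold lower (adjusted p = 0.023, and 0.19 for the mean of its probe sets), a call that needed both Tnfr1-/- replicates 1 and 3 and both wildtype replicates 1 and 2 (adjusted p = 0.10, 0.084, 0.10 and 0.12 when each was left out). Nfkbia (-0.61, adjusted p = 0.083) and Birc3 (-1.08, adjusted p = 0.061) did not pass, and had adjusted p of 0.031 and 0.0099 with the replicate number as a block. Birc2, which encodes an inhibitor of apoptosis protein, was called lower (log2 change -0.83, adjusted p = 0.020). That call was lost with the 6 arrays alone (adjusted p = 0.098). It was also lost without any one of 5 of the 6 arrays, Tnfr1-/- replicate 3 being the exception (adjusted p between 0.070 and 0.11). The core adaptors Tradd (-0.11), Fadd (-0.14) and Traf2 (-0.50) did not pass.

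Few cytokines and death genes passed. Of 31 interleukins and their receptors 3 were called lower, and 5 with the replicate number as a block. Il1b, which encodes interleukin-1β, had log2 values of 5.32, 5.04 and 4.77 in Tnfr1-/- glomeruli, against 6.28, 6.30 and 6.21 in wildtype glomeruli, a 2.32-fold decrease (adjusted p = 0.0047). Il23a, a subunit of interleukin-23, was 3.54-fold lower (adjusted p = 0.0010). Il6 had log2 values of 7.37, 7.50 and 7.48 in Tnfr1-/- and 8.29, 8.47 and 9.05 in wildtype glomeruli, which did not overlap, but the change of -1.15 did not pass (adjusted p = 0.54). Tnf changed by -0.98 (adjusted p = 0.10). All 11 measured ligands of the TNF superfamily had negative values (median -0.27), and 2 of them were called. Tnfsf13b, the B cell survival factor BAFF, had log2 values of 7.09, 7.03 and 7.24 in Tnfr1-/- glomeruli, against 7.97, 8.05 and 8.87 in wildtype glomeruli, a 2.26-fold decrease (adjusted p = 0.025, and 0.11 with a log2 change of -0.62 for the mean of its probe sets), and Tnfsf9, the 4-1BB ligand, was 1.74-fold lower (adjusted p = 0.038). The list held 0 called genes without Tnfr1-/- replicate 1, Tnfr1-/- replicate 3 or wildtype replicate 2, and 1 without Tnfr1-/- replicate 2 or wildtype replicate 3. Bid, which links death receptors to mitochondria, was 2.94-fold lower (adjusted p = 0.00041). The death receptor Fas was 3.52-fold lower (adjusted p = 0.013), a call lost without Tnfr1-/- replicate 1 (adjusted p = 0.059). The TNF receptor superfamily list held 2 called members of 18, which became 4 with the replicate number as a block, 0 without Tnfr1-/- replicate 1 and 1 without Tnfr1-/- replicate 2 or any one wildtype array.

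The higher genes included several of vascular tone. Of 39 measured vasoactive peptides, receptors and their effectors 5 were called higher and 1 lower (median 0.09). Vip, vasoactive intestinal peptide, had the largest increase of all genes. Its log2 values were 12.20, 11.89 and 12.43 in Tnfr1-/- glomeruli, against 9.0, 8.09 and 9.42 in wildtype glomeruli. It was among the brightest genes without the receptor, 10.1-fold higher than in wildtype (standard error 0.329 on the log2 scale, adjusted p = 0.00033). Its receptors Vipr1 (-0.26) and Vipr2 (0.07) did not pass. Nmb, the peptide neuromedin B, was 4.86-fold higher, with 10.26, 9.52 and 10.17 in Tnfr1-/- and 7.55, 7.74 and 7.82 in wildtype glomeruli (adjusted p = 0.00045).

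Subunits of soluble guanylate cyclase, the receptor for nitric oxide in smooth muscle and mesangial cells, rose. Gucy1a2 had log2 values of 9.75, 10.44 and 9.79 in Tnfr1-/- glomeruli, against 7.71, 8.05 and 8.16 in wildtype glomeruli, a 4.06-fold increase (adjusted p = 0.0019). Gucy1a1 was 3.07-fold higher (adjusted p = 0.0037, and 0.059 with the 6 arrays alone). Gucy1b1, the β subunit that pairs with either, was 1.76-fold higher (adjusted p = 0.019, 0.81 with a log2 change of 0.73 for the mean of its probe sets and 0.098 with the 6 arrays alone), a call that needed both Tnfr1-/- replicates 2 and 3 and wildtype replicate 2 (adjusted p = 0.076, 0.073 and 0.10 when each was left out). All 3 subunits had every Tnfr1-/- array above every wildtype array. Abcc9, the sulphonylurea receptor of vascular potassium channels, had log2 values of 8.18, 8.94 and 8.32 in Tnfr1-/- and 6.02, 5.49 and 6.54 in wildtype glomeruli, a 5.52-fold increase (adjusted p = 0.0028, and 0.13 with a log2 change of 1.06 where probe sets that may bind several transcripts were left out). Its pore partner Kcnj8, which lies next to it, was 2.85-fold higher (adjusted p = 0.025), but passed in no fit that left out 1 array other than wildtype replicate 3 (adjusted p between 0.058 and 0.13). Rgs2, which limits vasoconstrictor signalling, was 3.83-fold higher (adjusted p = 0.0077, and 0.073 with the 6 arrays alone), and the natriuretic peptide clearance receptor Npr3 2.68-fold (0.0055, and 0.12 for the mean of its probe sets). Ptgir, the prostacyclin receptor, went the other way, with 6.00, 6.68 and 6.34 in Tnfr1-/- and 7.80, 8.06 and 8.12 in wildtype glomeruli, a 3.14-fold decrease (adjusted p = 0.0041). The count of higher genes in this list was 3 without Tnfr1-/- replicate 3 or wildtype replicate 2.

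A few growth factor and Notch genes were called higher. Vegfd, a ligand of the lymphatic receptor VEGFR-3, had log2 values of 11.28, 12.22 and 11.27 in Tnfr1-/- glomeruli, against 9.03, 8.77 and 8.87 in wildtype glomeruli, a 6.48-fold increase (adjusted p = 0.00021). Angpt2, the TIE2 ligand that destabilises vessels, had log2 values of 10.99, 11.39 and 10.99 in Tnfr1-/- and 10.03, 10.05 and 10.10 in wildtype glomeruli, a 2.09-fold increase (adjusted p = 0.0041, and 0.050 with a log2 change of 0.93 for the mean of its probe sets). Vegfa (0.09), Vegfb (0.15) and Angpt1 (0.01) did not pass. Nrp2, a co-receptor of VEGF and semaphorins, was 2.53-fold lower (adjusted p = 0.0078, 0.091 with the 6 arrays alone, and 0.066 with a log2 change of -0.93 for the mean of its probe sets). In all, 3 of 20 members of the VEGF, angiopoietin and PDGF families were higher and 1 lower (median 0.23), with 5 higher under the replicate block and 2 without Tnfr1-/- replicate 2 or 3 or wildtype replicate 1 or 2. Heyl, a transcriptional target of Notch in mural cells, had log2 values of 10.19, 9.83 and 9.49 in Tnfr1-/- glomeruli, against 7.88, 7.11 and 6.89 in wildtype glomeruli, a 5.83-fold increase (adjusted p = 0.0020). Its relatives Hey1 (0.19), Hey2 (0.11) and Hes1 (0.24) did not pass, and Notch3, the mural cell receptor, changed by 1.44 (adjusted p = 0.071, and 0.014 with the replicate number as a block). Of 16 Notch pathway genes 2 were higher (median 0.15). The other was Nrarp, a feedback inhibitor of Notch (2.02-fold, adjusted p = 0.044), which passed in no fit that left out 1 array other than wildtype replicate 3 (adjusted p between 0.061 and 0.13).

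Of 27 measured markers of mesangial and smooth muscle cells 2 were higher (median 0.20), and 4 with the replicate number as a block. Hopx, a homeodomain protein without DNA binding, had log2 values of 12.14, 12.06 and 12.29 in Tnfr1-/- glomeruli, against 9.62, 9.42 and 9.68 in wildtype glomeruli. Both groups were tight, and the 6.02-fold increase had the smallest p of the higher genes (adjusted p = 9.3e-06). Itga8, the mesangial integrin α8, had log2 values of 11.66, 12.11 and 11.68 in Tnfr1-/- and 10.41, 10.31 and 10.50 in wildtype glomeruli, a 2.65-fold increase (adjusted p = 0.0052, and 0.14 with a log2 change of 1.53 for the mean of its probe sets). Contractile genes of the list did not follow, with changes of -0.41 (Acta2), 0.03 (Tagln) and 0.07 (Myh11), and the mesangial receptor Pdgfrb changed by 0.20. The list averaged 8.94, 8.94 and 8.63 on the Tnfr1-/- arrays, against 8.71, 8.37 and 8.30 on the wildtype arrays. Whether this shift takes part in the increases of Hopx and Itga8 was not tested.

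All 26 endothelial markers had positive changes, with a median of 0.64, but only Kdr, which encodes VEGF receptor 2, was called (1 of 26, and 4 with the replicate number as a block). Kdr had log2 values of 9.73, 10.49 and 9.95 in Tnfr1-/- glomeruli, against 8.94, 8.62 and 9.34 in wildtype glomeruli, a 2.13-fold increase (adjusted p = 0.041), a call that needed both Tnfr1-/- replicates 2 and 3 and both wildtype replicates 1 and 2 (adjusted p = 0.14, 0.084, 0.15 and 0.20 when each was left out). The changes of the pan-endothelial genes Cdh5 (0.62) and Pecam1 (0.70) did not pass. The markers averaged 9.23, 9.24 and 8.72 on the Tnfr1-/- arrays, against 8.73, 8.33 and 8.22 on the wildtype arrays. The lowest Tnfr1-/- array (8.719) lay just under the highest wildtype array (8.726), so the groups overlapped. Prkch, a protein kinase C of endothelium, was 2.09-fold higher (adjusted p = 0.0047, 0.060 with the 6 arrays alone and 0.44 for the mean of its probe sets). The part of the endothelial shift in the increases of Kdr, Angpt2 and Prkch was not tested.

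Podocyte, tubular and lymphocyte markers held 0 called genes each, where 1.2% of all genes were called. The 22 tubular markers averaged 6.41, 6.00 and 5.73 on the Tnfr1-/- arrays, against 5.99, 5.39 and 5.81 on the wildtype arrays. The podocyte antigen Podxl, with values above 12 on all 6 arrays, placed the tissue as glomerular. Of the tubular markers the proximal transporter Slc34a1 lay between 4.79 and 5.23, and uromodulin (Umod), the main protein of the thick ascending limb, had log2 values of 8.34, 7.52 and 7.52 in Tnfr1-/- and 7.17, 5.75 and 7.49 in wildtype glomeruli. The part of tubular RNA in the called genes was not tested. Of 10 neutrophil markers only the antimicrobial peptide Camp was called (3.23-fold lower, adjusted p = 0.031, and lost without any one of 5 of the 6 arrays, Tnfr1-/- replicate 1 being the exception, with adjusted p between 0.071 and 0.14), 9 were dim in both genotypes, and the list averaged 4.59, 4.44 and 4.48 on the Tnfr1-/- arrays, against 4.66, 4.85 and 4.85 on the wildtype arrays. The part of neutrophils in the lower genes was not tested. The 25 podocyte markers averaged 10.5, 9.11 and 10.4 on the Tnfr1-/- arrays, against 10.3, 10.05 and 9.98 on the wildtype arrays. Replicate 2 of Tnfr1-/- thus stood apart with the lowest podocyte and the highest macrophage mean (8.43). It was the highest of the 3 Tnfr1-/- arrays for 54.2% of the lower and 56.8% of the higher genes, against 29.1% of all genes. Whether its cell composition takes part in these values was not tested. Without it 116 genes were lower and 61 higher, and 152 of the 219 calls were kept. With the podocyte mean as a covariate, an alternative chosen after the data had been seen, 145 were lower and 100 higher, 206 of them shared. The arrays also differed in the beta-actin control, whose 3′ probe sets exceeded its 5′ probe sets by 0.985, 0.921 and 1.95 log2 units in Tnfr1-/- and 0.870, 0.667 and 1.83 in wildtype glomeruli. Replicate 3 stood apart in both genotypes, so the arrays of high difference were 1 per genotype. Within the arrays of low difference 218 of the 219 genes passed 1.5-fold in their direction. These genes had been called with the same arrays, which made a high count likely in advance. The part of the beta-actin difference in the called genes was therefore not tested.

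**Figure D4:**
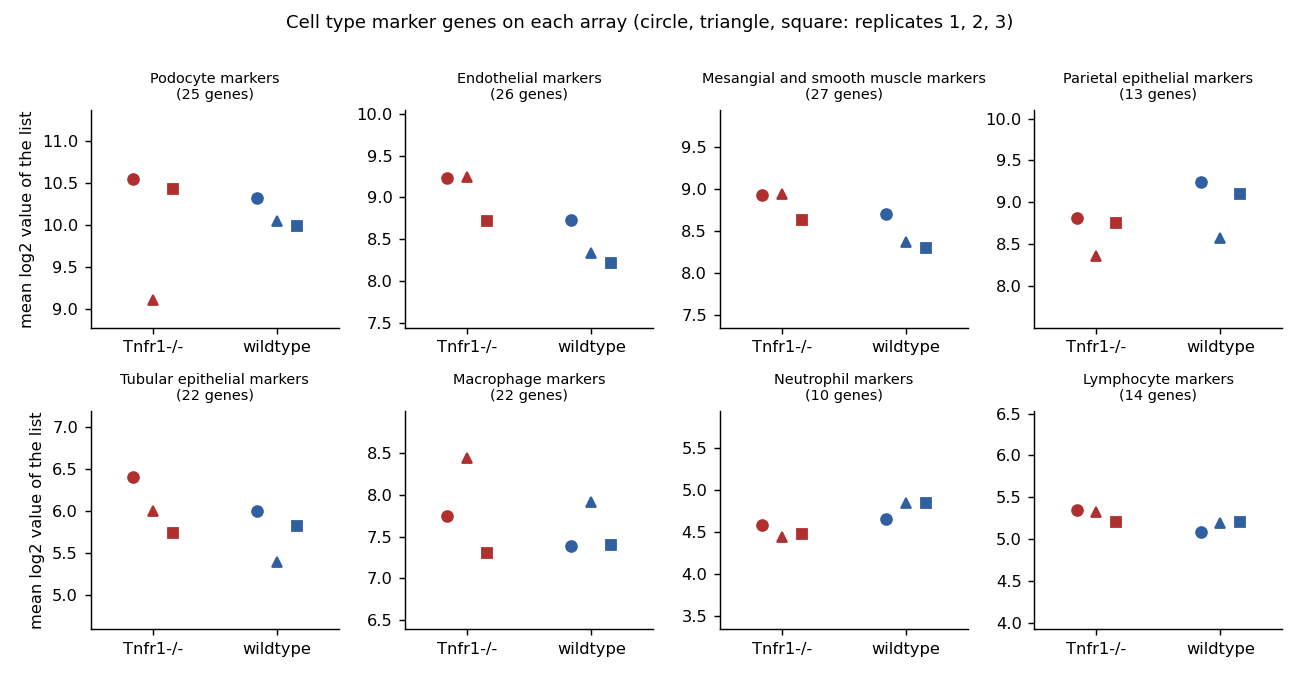
Mean log2 value (y axis) of cell type marker lists on each of the 3 Tnfr1-/- and 3 wildtype arrays (circle, triangle and square are replicates 1, 2 and 3). Replicate 2 of Tnfr1-/- has the lowest podocyte mean (9.11) and the highest macrophage mean (8.43), and the endothelial means run from 8.72 to 9.24 in Tnfr1-/- and from 8.22 to 8.73 in wildtype glomeruli.

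The loss of TNF receptor 1 could be read a second time in mice that lacked TNF receptor 2, by comparing Tnfr1,2-/- with Tnfr2-/- glomeruli on the other 6 arrays, which share no array with the first comparison. There 190 genes were lower (1.04% of all genes) and 63 higher (0.346%), 1.39% in all. All 131 genes lower in Tnfr1-/- glomeruli had the same sign there, against 48.2% of all genes, and 128 passed 1.5-fold in it, against 4.96% of all genes. Of them 115 were called, 87.8% of the first list and 60.5% of the second. Of the 88 higher genes 88 had the same sign, against 51.8% of all genes, 66 passed 1.5-fold, against 3.8%, and 47 were called, 53.4% of the first list and 74.6% of the second. The median log2 change of the 131 was -1.74 there and -1.59 here, and that of the 88 was 0.98 there and 1.32 here. Both fits share the estimate of the spread over 12 arrays. With each comparison fitted to its own 6 arrays, 130 were lower there and 60 here, 48 of them shared, and 38 were higher there and 37 here, 17 of them shared.

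**Figure D5:**
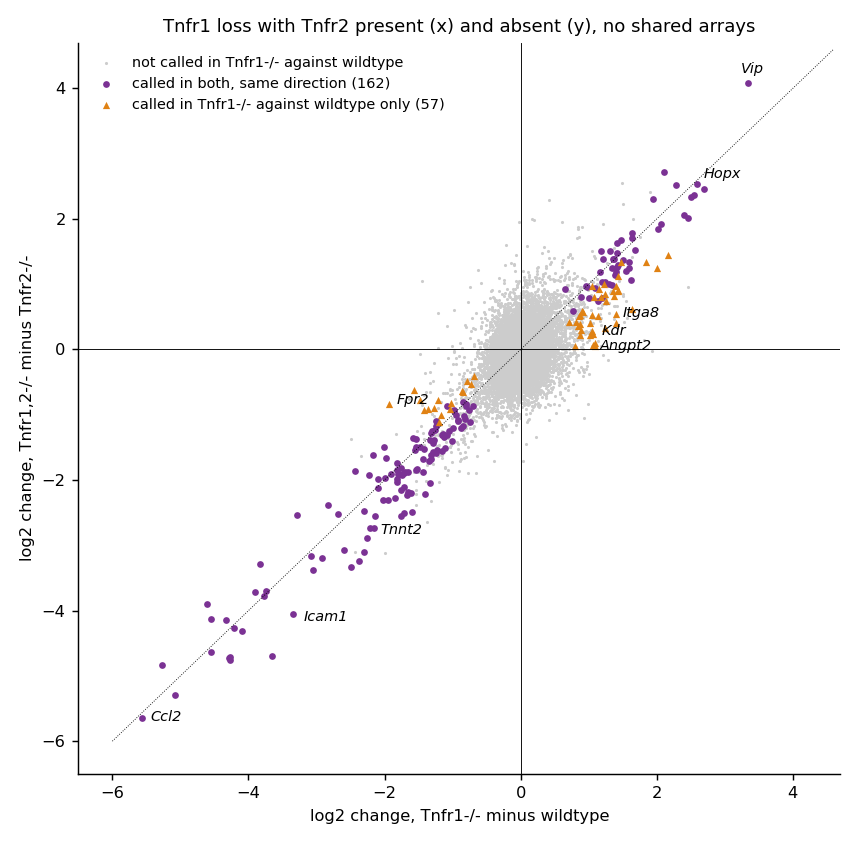
Log2 change, Tnfr1,2-/- minus Tnfr2-/- (y axis), against log2 change, Tnfr1-/- minus wildtype (x axis), for 18194 genes, from comparisons with no shared array. Purple circles are the 162 genes called in the same direction in both comparisons, orange triangles the 57 called only in Tnfr1-/- against wildtype glomeruli and grey points the rest, and the dotted line marks equal changes; all 219 called genes have the same sign on both axes.

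For the inflammatory genes the log2 change in Tnfr1,2-/- against Tnfr2-/- glomeruli was -5.64 for Ccl2, -4.83 for Acod1, -5.29 for Cfb, -4.63 for Vcam1, -4.05 for Icam1 and -3.71 for Hp. Among the higher genes it was 4.08 for Vip, 2.46 for Vegfd, 2.53 for Hopx and 2.37 for Heyl. The genes with smaller values there were mostly among the higher ones, where 22 of 88 stayed under 1.5-fold, against 3 of 131 lower genes (Hoxd10, Rgs19 and Rnf150). The 22 included vascular genes. Kdr changed by 0.10 there, Prkch by 0.07, Angpt2 by 0.24, Itga8 by 0.55 and Gucy1b1 by 0.42, and the median of the 26 endothelial markers was -0.05. A test of the difference between the 2 effects called 0 genes (limma, lowest adjusted p = 0.998, 245 genes at an unadjusted p under 0.05). The difference was 0.99 for Prkch (standard error 0.214) and 0.82 for Angpt2 (0.209), neither of which passed. Against Tnfr2-/- glomeruli, Tnfr1-/- glomeruli had 154 lower (0.846%) and 65 higher genes (0.357%), 1.2% in all. Against Tnfr1,2-/- glomeruli only Rab6b was called by limma, with 472 genes at an unadjusted p under 0.05 and 4 genes called by significance analysis of microarrays (SAM), and for the 131 lower genes the Tnfr1-/- values lay between -0.86 and 0.95 of the Tnfr1,2-/- values on the log2 scale, with a median difference of 0.04.

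The called genes included 7 next to the targeted locus. Of 221 genes within 10 Mb of Tnfrsf1a on chromosome 6 (RefSeq positions, GRCm38.p6) 3.17% were called, against 1.18% of the 17812 genes elsewhere. The lower ones were Bid, C1ra, C1s1, Clec4e, Olr1 and Tapbpl, and the higher one was Slc2a3. The log2 change of Slc2a3 was 0.88 (adjusted p = 0.045), and it was 0.25 (adjusted p = 1) where probe sets that may bind several transcripts were left out. Its call was also lost with SAM, with a variance trend and without any one of 5 of the 6 arrays, Tnfr1-/- replicate 3 being the exception (adjusted p between 0.11 and 0.21). Bid, C1ra, C1s1, Clec4e and Tapbpl were also called in Tnfr1,2-/- against Tnfr2-/- glomeruli, where the targeted allele differs too. DNA carried along with the allele from the strain of the targeted stem cells and loss of the receptor cannot be told apart for them. Nnt, named after its values had been seen, encodes a mitochondrial enzyme, and a deletion in this gene is known in the C57BL/6J strain. It had log2 values of 9.75, 9.67 and 9.92 in Tnfr1-/- glomeruli, against 8.47, 8.27 and 8.47 in wildtype glomeruli, a 2.59-fold increase (adjusted p = 0.0031) that was lost for the mean of its probe sets (log2 change 0.78, adjusted p = 0.12). In Tnfr1,2-/- against Tnfr2-/- glomeruli Nnt changed by 0.81 (adjusted p = 0.060).

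Several groups held no called gene, where 1.2% of all genes were called, a share at which lists of this size may hold none. These were 34 cell cycle genes (median 0.04), 28 immediate-early genes (0.04), 11 heat shock genes (-0.10), 15 housekeeping genes (-0.02) and 9 colony-stimulating factors and their receptors (-0.13), of which Csf1 changed by -1.12 (adjusted p = 0.11) and passed with the replicate number as a block (0.025), which made the count of its list 1, as it was without Tnfr1-/- replicate 2. Of 55 basement membrane and matrix genes 1 was higher (median -0.05), and 2 with the replicate number as a block. In the 45 lists together 71 of the lower and 14 of the higher genes had a place. Among those outside, the tyrosine kinase gene Bmx had log2 values of 6.74, 7.36 and 7.22 in Tnfr1-/- and 4.88, 5.19 and 5.06 in wildtype glomeruli, a 4.17-fold increase (adjusted p = 0.00013). Adhfe1, a mitochondrial oxidoreductase, had log2 values of 5.06, 5.02 and 5.12 in Tnfr1-/- and 7.88, 8.09 and 8.49 in wildtype glomeruli, an 8.49-fold decrease (adjusted p = 4.6e-06). Its other probe sets changed by -1.83 and, near the floor of the arrays, by -0.17. Qpct, which encodes glutaminyl cyclase, was 3.11-fold higher (adjusted p = 0.0028) and Limch1, an activator of non-muscle myosin, 3.21-fold (0.0065, and 0.070 with the 6 arrays alone). Gdf10, a BMP family ligand, was 4.50-fold higher (adjusted p = 0.010, 0.050 without wildtype replicate 3 and 0.0545 with the 6 arrays alone). Also among the 20 largest increases were Lmcd1 (4.02-fold), Cd248 (3.60-fold), Kctd12b (3.11-fold) and Add2 (3.10-fold), whose adjusted p lay between 0.017 and 0.028 and whose calls were each lost without any one of 4 or 5 of the 6 arrays. Ppp1r3c, a glycogen-targeting subunit of protein phosphatase 1, was 5.30-fold higher (adjusted p = 0.00024). Krt13, a keratin of stratified epithelium, was 5.66-fold higher on 1 probe set and changed by 0.28 to 0.48 on 2 others. For Caln1 and Ntrk2 the probe sets also disagreed, with log2 changes between -0.20 and 2.11 and between 0.03 and 2.61. Of the 132 called genes with several probe sets, 121 had the same sign on all of them and 73 passed 1.5-fold on all.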

How the data were processed

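Gene expression was measured with Affymetrix whole-genome mouse expression arrays on RNA of isolated glomeruli, 3 independent preparations per genotype. Neither the labels nor the methods say whether each preparation came from separate mice, so the p-values reflect the variation among these samples only. The authors scanned the arrays and normalized all 12 together by the robust multichip average, so the deposited values are log2 values, used as they are. The array has 45101 probe sets including 64 controls, and the annotation of the platform gives exactly 1 symbol to 34958. Precision is limited by the number of arrays, and with 3 per genotype the smallest p of an exact permutation test is 0.1.

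All 4 genotypes entered 1 linear model per gene (limma 3.58.1, R 4.3.3) with 8 residual degrees of freedom and empirical Bayes moderation without trend, with Benjamini-Hochberg adjustment over 18194 genes. Calls needed an adjusted p under 0.05 and 1.5-fold or more. The method was tried on simulated data with independent noise for each gene and array. That simulation held no replicate pairing, array set or difference in cell composition, so it cannot tell how the method behaves with them. The replicate numbers came from the labels. Deviations from the group means correlated between same-numbered Tnfr1-/- and wildtype arrays (r = 0.621, 0.342 and 0.715 across genes). For different numbers r was -0.584 to 0.212. Deviations cancel out within a group, so positive values for the same number push those for different numbers down. Replicate 3 also had the highest beta-actin difference in both genotypes, so pairing and array set cannot be told apart here. A fit with the replicate number as a block, which treats same numbers as paired, was run as an alternative. Alternatives were all probe sets, averaged probe sets, only the arrays compared, a variance trend, array weights, the methods' SAM (written anew, 20 label assignments, q under 5%), other fold thresholds, cyclic loess, median centring, removal of dim probe sets or of those binding several transcripts, a block for the array set (by the beta-actin difference), the larger set alone and each array left out. Eligible to be named were both receptor genes, the 20 largest called changes in each direction, list members, called genes within 10 Mb of Tnfrsf1a, genes with disagreeing probe sets or extreme spread, and the leading genes of the other contrasts. The comparison, gene lists and alternatives were chosen with earlier results of these data known. Promoter windows came from RefSeq (GRCm38.p6).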

Additional observations from a re-analysis of the deposited data

Results flagged for a closer look

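Probe sets without a single gene symbol stood outside the comparison of genes. Of 10092 such probe sets, 17 were called lower and 6 higher in Tnfr1-/- than in wildtype glomeruli (limma, adjusted over all probe sets other than controls). Their genes are not named here. With 3 arrays per genotype no single array was tested for distance from its group.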

How the results depend on the processing

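Each alternative setting changed 1 choice. With the replicate number as a block (same-numbered arrays treated as paired, which may not hold for Tnfr1,2-/-), 240 genes were lower and 197 higher in Tnfr1-/- than in wildtype glomeruli. The block also gave 450 called genes against Tnfr2-/- glomeruli in place of 219, 639 for Tnfr1,2-/- against Tnfr2-/- glomeruli in place of 253, 4 against Tnfr1,2-/- glomeruli in place of 1, and 12 near Tnfrsf1a in place of 7. With the array set as a block these counts were 258 lower, 212 higher, 462, 404, 4 and 11. Only the arrays compared gave 60 lower, 37 higher, 168 for Tnfr1,2-/- against Tnfr2-/-, 0 against Tnfr1,2-/- and 2 near Tnfrsf1a. Array weights gave 198 lower, 158 higher, 760 and 4. The larger array set alone gave 92 lower and 64 higher genes, 97 for Tnfr1,2-/- against Tnfr2-/-, 0 against Tnfr1,2-/- and 4 near Tnfrsf1a, with fewer arrays by construction. Against Tnfr1,2-/- glomeruli the count was also 0 for the mean of probe sets, 3 with a variance trend, 4 with SAM and 3 without dim probe sets, and a 2-fold threshold left 4 genes near Tnfrsf1a. Leaving out each array in turn gave 78 to 116 lower and 40 to 76 higher genes, 127 to 184 against Tnfr2-/-, 1 against Tnfr1,2-/-, 147 to 250 for Tnfr1,2-/- against Tnfr2-/-, 3 to 6 near Tnfrsf1a and 0 for the difference between the effects. SAM called 174 lower and 106 higher genes, 205 of them shared. The cause of these shifts was not tested. Tnnt2 was the only named gene that changed sign, with 0.17 where probe sets that may bind several transcripts were left out. Single genes were not read with all probe sets or without a Tnfr1,2-/- or Tnfr2-/- array. Of the called genes eligible to be named 51 kept their call in each other setting that tested them, the podocyte covariate included. The other 78 lost it in at least 1. Without each single array 79 kept it and 50 lost it at least once.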
